A study of Rattus norvegicus with 2 samples.

Results

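Rat chromosome 12 carried 259 of the 7129 distinct intervals at which the transcription factor specificity protein 1 (SP1) was called in the left ventricle. The intervals were taken as every entry of the SP1 peak list placed on chromosome 12, with entries that share a start and an end joined into 1 interval, which turned 277 summits into 259 intervals. The chromosome itself was chosen by its measured number of intervals per Mb, the second highest of the 20 numbered chromosomes, so its density is described here without a test.

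The list came from chromatin immunoprecipitation followed by sequencing (ChIP-seq), which recovers DNA crosslinked to a protein with an antibody and counts where in the genome it comes from. The series held 1 library precipitated with anti-SP1 (IP) and 1 input library of sheared chromatin with no antibody, both from male Sprague-Dawley rats whose treatment is given as sham. The labels name left ventricular myocardium and also primary cardiomyocytes from it, and state neither how old the animals were nor their number. With 1 library per group, no value below has a replicate check, and confidence intervals account for counting error alone. In the study, the assay addressed SP1 binding at the promoter of *Cirbp*, a gene for a cold-inducible RNA-binding protein.

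SP1 is a zinc finger protein that binds GC-rich DNA, above all the GC box, whose core reads GGGCGG. It is present in most cell types, acts at many promoters without a TATA box, and recruits the general transcription machinery there. Because GC boxes crowd near gene starts, binding sites of SP1 are usually dense where genes are dense.

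The processing notes of the submitters name the rat assembly Rnor_6.0, but the scaffold names in the list are not those of that assembly. The build is therefore uncertain, positions are given as the list has them, counted from 1, and which intervals fall in promoters, exons or introns was not analysed here. The gene table at hand, of the assembly GRCr8, was used only for which chromosome a gene lies on. It places 672 protein-coding genes on chromosome 12, among them several of the heart, such as *Myl2* (the regulatory light chain of ventricular myosin), *Atp2a2* (the calcium pump of the sarcoplasmic reticulum), *Tbx5* (a transcription factor of heart development) and *Hspb1* (a small heat shock protein). Whether SP1 sat at any of these genes was not analysed here.

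Chromosome 12 had 5.56 intervals per Mb (4.90 to 6.28, an exact 95% Poisson interval) over the 46.6 Mb from the chromosome start to its last interval. Chromosome 10 had 6.34 per Mb (5.87 to 6.83), and chromosome 20, the next below chromosome 12, had 4.46 (3.92 to 5.06). The other 19 numbered chromosomes together had 2.83 per Mb, so chromosome 12 had 1.97 times their density. The intervals covered 112 kb, or 0.240% of the chromosome up to the last interval, against 0.0670% on chromosome 2 and 0.259% on chromosome 10, the lowest and the highest of the others.

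Chromosomes 10 and 12 ranked first and second, in changing order, under each threshold tried, but at the strictest chromosome 19 was close to chromosome 10. With only summits at a −log10 q of 5 or more, chromosome 12 came first, with 2.75 intervals per Mb (2.29 to 3.27) against 2.48 (2.19 to 2.79) on chromosome 10. When the list was limited to a −log10 q of 10 or more, the 51 intervals of chromosome 12 gave 1.09 per Mb (0.815 to 1.44), and the 79 of chromosome 10 gave 0.739 (0.585 to 0.920). Against the other 19 chromosomes together, the ratio was 2.25 at the first of these thresholds and 2.62 at the second. With a fold enrichment of at least 5, chromosome 12 stayed second, with 4.06 per Mb (3.50 to 4.68) against 4.34 (3.95 to 4.75) on chromosome 10. The counting intervals of the 2 chromosomes overlapped in the list as deposited and in all 3 of these settings. Still, each density lay outside the interval of the other as deposited, where chromosome 10 was higher. The same held at a −log10 q of 10 or more, where chromosome 12 was higher. In the remaining settings each lay inside the interval of the other. Which chromosome came first thus depended on the threshold, and the difference was not tested. Chromosome 12 was chosen by its density, and the stricter lists are parts of the list used for that choice.

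Genes were also dense on chromosome 12. GRCr8 places 14.4 protein-coding genes per Mb there, counted over the same length, which was the third highest value after chromosome 10 with 16.7 and chromosome 19. Per 100 protein-coding genes, chromosome 12 had 38.5 intervals (33.99 to 43.5), which came first among the numbered chromosomes, followed by chromosome 20 with 38.0. The others ran down to 25.9 on chromosome 15, and 6 of the 19 lay inside the counting interval of chromosome 12. The highest density, on chromosome 10, was 3.72 times the lowest, on chromosome 2. Per gene, the highest value, on chromosome 12, was 1.49 times the lowest, on chromosome 15. Across the 20 chromosomes, intervals per Mb and genes per Mb had a Pearson correlation of 0.949 and a Spearman correlation of 0.910. Both measures divide by the same length, which ties them together. Without chromosomes 10 and 12 the Pearson correlation was 0.923 over 18 chromosomes.

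**Figure D1:**
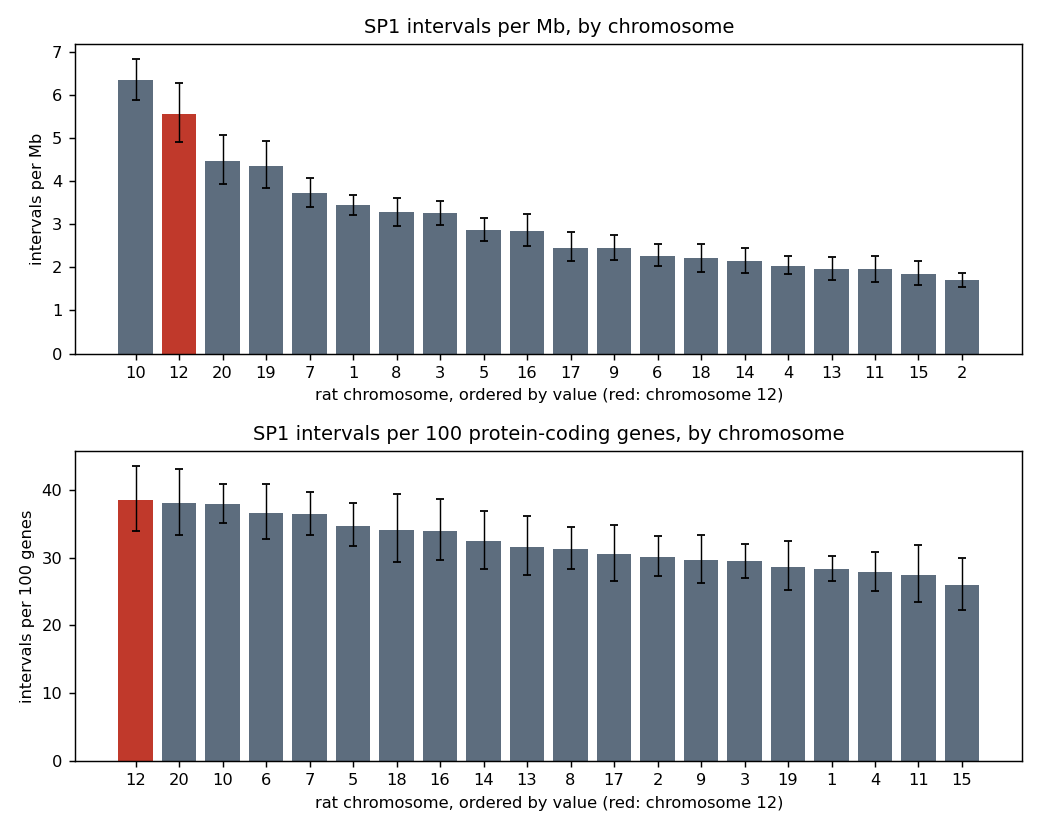
SP1 intervals per Mb (upper panel) and per 100 protein-coding genes of GRCr8 (lower panel) for the 20 numbered chromosomes, each panel ordered by its own value. Bars start at 0, error bars are exact 95% Poisson intervals, and chromosome 12 (red) has 5.56 intervals per Mb, second to chromosome 10, and 38.5 per 100 genes, just above the 38.0 of chromosome 20.

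Promoters of chromosome 12 held the GC box somewhat more often than most. Among 717 RefSeq gene starts of its protein-coding genes in GRCr8, 342, or 47.7% (Wilson 95% confidence interval 44.1% to 51.4%), had GGGCGG. Either strand was searched, from 250 bases before to 50 bases after the start. The set of starts held 21851 starts of 19005 genes, so some genes counted more than once. Other genes had no start in it, as on chromosome 7 with 1027 starts for 1373 genes. The Wilson interval takes starts of the same gene as independent. The pooled share on the other numbered chromosomes was 41.8%, and the lowest single value was 34.6% on chromosome 15. Chromosomes 5 and 6 had higher shares than chromosome 12, and 7 of the 19 others lay inside its interval. Over the 20 chromosomes, this share and the density of intervals had a Spearman correlation of 0.338, against 0.910 for gene density. Gene density is divided by the same length as the density of intervals and this share is not, so these correlations are not like measures. A match to these letters is a description of the promoter and says nothing about whether SP1 was bound there.

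Along chromosome 12 the intervals were spread over nearly its whole length. Of 47 bins of 1 Mb, 4 had no interval, or 8.51% (3.36% to 19.9%), whereas on the other numbered chromosomes the share of empty bins ran from 16.8% on chromosome 10 to 46.0% on chromosome 2. The median bin of chromosome 12 held 5 intervals, against 4 on chromosome 10 and 1 on the median chromosome. Its fullest bins were not extreme, with 15 intervals each, while 11 other chromosomes had a bin with more, up to 42 on chromosome 7. The densest 25% of its bins (12 bins) held 53.3% of its intervals, the lowest such share among the numbered chromosomes, where the next lowest was 58.5% on chromosome 17. A chromosome with more intervals per bin has fewer empty bins and a lower share in its fullest ones by arithmetic alone. The share of empty bins on chromosome 10 lay inside the interval of chromosome 12.

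**Figure D2:**
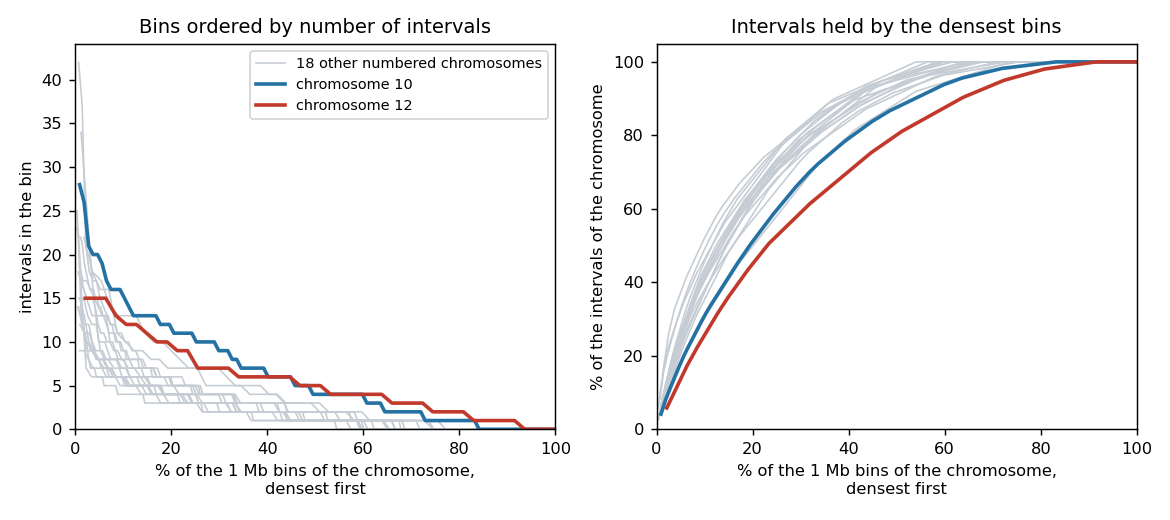
Number of intervals in each 1 Mb bin (left) and running share of the intervals of the chromosome (right), with the bins of each chromosome ordered from densest to emptiest and given as a percentage of its bins. Chromosome 12 (red) starts at 15 intervals in a bin, below chromosome 10 (blue), and its running share lies below that of the other 19 chromosomes at the densest 25% of bins, with 53.3%.

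In blocks of 10 Mb, the density was lowest at the start of the chromosome. The first 10 Mb held 37 intervals, or 3.70 per Mb (2.61 to 5.10), and the next 10 Mb held 69, or 6.90 per Mb (5.37 to 8.73), the counting intervals of which did not overlap. Between 20 and 30 Mb there were 43 intervals (4.30 per Mb, 3.11 to 5.79), between 30 and 40 Mb 63 (6.30, 4.84 to 8.06), and from 40 Mb to the last interval 47 (7.15, 5.25 to 9.50). Median folds tended to be higher in the sparser blocks. From the start of the chromosome they were 7.50 (95% interval 5.28 to 8.29), 5.60 (5.14 to 6.79), 6.65 (5.66 to 6.97), 6.03 (5.28 to 6.79) and 6.03 (5.45 to 7.30). All 5 intervals overlapped one another.

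The 3 fullest bins, with 15 intervals each, lay at 19 to 20 Mb, 33 to 34 Mb and 41 to 42 Mb. In the bin at 19 to 20 Mb the folds ran from 3.66 to 15.5 with a median of 5.43, the tags at the summit from 5 to 20, and the widths from 197 to 758 bp. In the bin at 33 to 34 Mb no interval reached 10-fold: folds ran from 4.32 to 9.80 with a median of 6.20, and tags from 5 to 12. In the bin at 41 to 42 Mb the folds ran from 4.41 to 16.9 with a median of 6.03, and 1 interval was enriched at least 10-fold. None of the 45 intervals had more than 1 summit. Strong intervals were thus few in the fullest bins, since the bin at 19 to 20 Mb also had 1 enriched at least 10-fold. The median fold of that bin lay below the 95% interval of the median of the chromosome (5.89 to 6.65). It rests on 15 intervals that also count towards the chromosome, and its own spread was not computed, so no difference can be read from it.

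Over all dense bins together such a contrast was not seen. The 138 intervals in the densest 25% of bins had a median fold of 6.03 (5.64 to 6.79) and a median width of 386 bp (330 to 435), and the 121 in the other 35 bins had 6.08 (5.28 to 6.79) and 355 bp (311 to 401). At least 10-fold enrichment was seen in 11.6% (7.26% to 18%) and 14.9% (9.62% to 22.3%), and several summits in 4.35% (2.01% to 9.16%) and 8.26% (4.55% to 14.5%), with overlapping intervals throughout. Bins with 7 intervals lay at the edge of this set, where 3 bins with as many were left out.

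Long stretches without an interval were few, and the longest on chromosome 12 was shorter than the longest on each of the other numbered chromosomes, where it ran from 4464 to 14752 kb. Chromosome 12 was also the shortest up to its last interval, at 46.6 Mb, and the second densest. A short and dense chromosome tends to have a shorter longest gap by arithmetic alone. Of the 258 gaps between intervals on chromosome 12, 7 were longer than 1 Mb and together took 10.9 Mb, or 23.4% of the length. The longest ran from 2685169 to 4886905, or 2.202 Mb, the next from 17267170 to 18911334 (1.64 Mb), and the third from 22536247 to 24102845 (1.57 Mb). The third opened a sparse stretch of 8.58 Mb, up to position 31117213, which held 4 of the 7 long gaps and 20 intervals, or 2.33 per Mb (1.42 to 3.60). Of these 20 intervals, 13 stood in the single bin at 26 to 27 Mb, with folds from 3.77 to 19.5, and 7 in all the rest. That stretch was delimited after the gaps were seen. Whether the gaps hold sequence to which reads can be aligned cannot be read from the list.

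Close neighbours took a middling share. On chromosome 12, 59 intervals, or 22.8% (18.1% to 28.3%), had another within 10 kb, which ranked ninth although its density ranked second, against 31.7% on chromosome 10. Elsewhere the share ran down to 11.3% on chromosome 11. The median gap was 70.2 kb (quartiles 24.5 and 191 kb), against 52.9 kb on chromosome 10 and 169 kb on chromosome 2. Joined at a distance of up to 10 kb, the 59 intervals formed 23 pairs, 3 groups of 3 and 1 group of 4, while chromosome 2 had a group of 13. The group of 4 lay at 33424724 to 33431746, within the bin at 33 to 34 Mb, with folds of 4.32 to 5.86 on 5 to 7 tags. The 3 groups of 3 started at 11663066, 16313595 and 17038815, and the last of these had the widest range of folds, from 4.87 to 16.5.

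Some gaps were very short. Of the 258 gaps, 14 were under 1 kb and 10 of these under 0.4 kb, the smallest being 203 bp, and on the numbered chromosomes together no gap was under 193 bp. Intervals with a neighbour were narrower, with a median of 294 bp (257 to 384) against 394 bp (355 to 433) for the 200 without, while the median fold was 6.004 (5.28 to 6.79) in the first set and 6.18 (5.89 to 6.79) in the second. For width each median lay outside the interval of the other, while the folds did not differ in this way. This split was not tested.

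The typical fold enrichment on chromosome 12 was close to that of the other chromosomes. The fold of an interval, taken at its best summit, had a median of 6.03 (95% interval 5.89 to 6.65), quartiles of 4.90 and 7.94, and a range of 3.58 to 22.6. The highest folds of the list lay elsewhere, with 96.0 on chromosome 4 and 95.1 on chromosome 10. The medians of the other 19 chromosomes lay between 5.63 and 6.03, and 12 of them lay inside the interval of chromosome 12. At least 10-fold enrichment was seen at 34 intervals, or 13.1% (9.55% to 17.8%), against 8.88% on the other numbered chromosomes together and 7.23% to 12.1% on each. A −log10 q of at least 10 was reached by 19.7% (15.3% to 24.96%), against 14.8% together and 11.7% to 18.998% on each. Chromosome 12 thus ranked first in both shares, and the share of the others together lay just below its interval in each case. However, 8 of the 19 others lay inside its interval each time, so it could not be set apart from those. The difference was not tested.

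**Figure D3:**
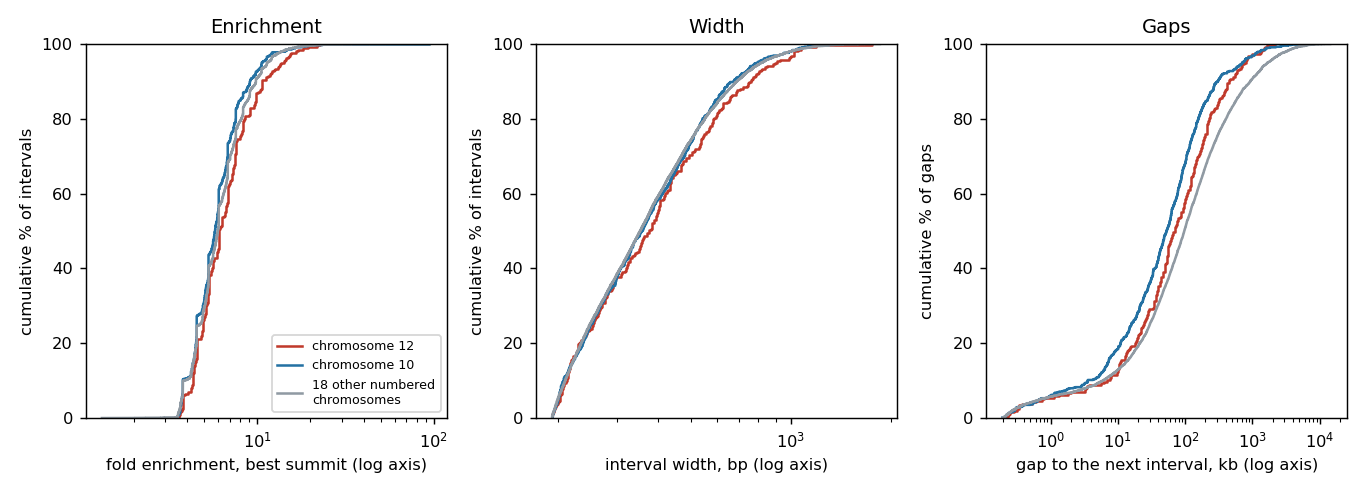
Cumulative share of intervals by fold enrichment at the best summit (left) and by width (middle), and of gaps between neighbouring intervals (right), all on log axes, for chromosome 12 (red), chromosome 10 (blue) and the 18 other numbered chromosomes together (grey). The fold curve of chromosome 12 lies slightly to the right of the others, with 13.1% of its intervals at 10-fold or more, and the curve of its gaps mostly lies between those of chromosome 10 and the rest.

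The tags behind each fold were few. Tags, the reads or read pairs counted by the peak caller, are not listed, but their number at a summit follows from the deposited fold and p value together. The fold was taken as (tags + 1)/(expected tags + 1), and the p value as the upper Poisson tail beyond the observed tags. All 277 summits on chromosome 12 had exactly 1 whole-number solution. The median was 8 tags per interval (95% interval 7 to 8, quartiles 6 and 10, range 4 to 64), where the median of each of the other 19 chromosomes was 7. Hence 127 intervals, or 49.0% (43.0% to 55.1%), rested on 7 tags or fewer, against 50.6% to 59.6% on the others, 10 of which lay inside that interval.

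The expected number of tags comes from the input library and cannot go below a genome-wide value of 0.326 tags. At 93 intervals of chromosome 12, or 35.9% (30.3% to 41.9%), it stood at this value, against 25% on chromosome 11 to 44.4% on chromosome 20. There the fold can take only set values: 10 intervals had 4 tags and a fold of 3.77, 13 had 6 tags and 5.28, 13 had 7 tags and 6.03, and 11 had 8 tags and 6.79. A fold of 6.03 on 7 tags has a Poisson interval of 2.88 to 11.6. Of the 259 intervals, 233, or 90.0%, had a counting interval that enclosed the median fold of the chromosome. The share of at least 10-fold enrichment was therefore read on both sides of this divide. Among intervals at the genome-wide expectation it was 10.8% (5.95% to 18.7%) on chromosome 12 against 9.13% on the other chromosomes, and among those with raised expectation 14.5% (9.91% to 20.6%) against 8.77%, so the counting interval of chromosome 12 enclosed the share of the others in the first set and not in the second.

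The 34 intervals enriched at least 10-fold were scattered over 22 bins, with at most 3 in a bin. They rested on 13 to 30 tags and had a median width of 597 bp, against 355 bp for the others. Of these 34, 10 had a neighbour within 10 kb and 9 had several summits, against 59 and 16 of all 259 intervals. The fold is that of the best summit, so several summits give an interval more chances to reach 10-fold.

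The 10 intervals of highest fold ran from 15.0-fold to 22.6-fold. The first, at positions 34731341 to 34732271, had 29 tags at its summit, where the expectation was the genome-wide one, a fold of 22.6 (15.4 to 32.2, carried over from the Poisson interval of the tags) and a width of 931 bp. Its left neighbour was 1.12 kb away. The second, at 31238796 to 31239541, showed a fold of 21.7 (14.9 to 30.7) on 30 tags. The fourth, at 31156300 to 31156692, had a fold of 18.3 (11.96 to 26.8) and stood in the same bin at 31 to 32 Mb, in which the sparse stretch described above ended and which held 11 intervals.

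The third and the eighth both stood in the bin at 26 to 27 Mb, inside that sparse stretch. The third, at 26882791 to 26883414, showed a fold of 19.5 (13.0 to 28.2) on 26 tags, and the eighth, at 26943834 to 26944403, one of 15.3 (9.65 to 23.3) on 20 tags. They were 60.4 kb apart, with no interval in between.

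The fifth and the sixth were narrow. The fifth, at 41493474 to 41493801, showed a fold of 16.9 (10.98 to 25.03) on 23 tags in 328 bp, and the sixth, at 17038815 to 17039084, one of 16.5 (10.7 to 24.4) on 23 tags in 270 bp. The narrowest interval of the list was 192 bp. The seventh, the ninth and the tenth, starting at 19158580, 32061064 and 5850314, had folds of 15.5, 15.1 and 15.0 and widths of 751, 771 and 623 bp. The fold of the first lay inside the counting interval of 9 of the 10, itself included, so most of this order could not be told at this depth. In the ranking of all intervals of the list by fold, the first of chromosome 12 came 19th. At least 20-fold enrichment was seen at 2 of the 259 intervals on chromosome 12 and at 29 of the 6790 on the other numbered chromosomes. With only 2 such intervals on chromosome 12, the shares cannot be compared.

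**Figure D4:**
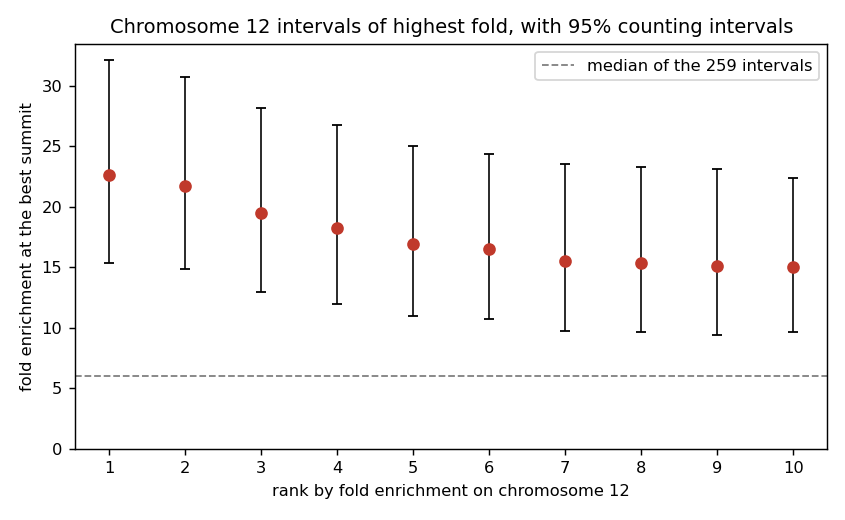
Fold enrichment at the best summit of the 10 intervals of highest fold on chromosome 12, ordered by fold, with exact 95% Poisson intervals of the tags carried over to the fold. The points fall from 22.6 to 15.0, their error bars overlap, and all lie above the median of 6.03 of the 259 intervals (dashed line).

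Input was raised strongly at 1 place. The first interval of the chromosome, at 21228 to 21853, had 64 tags at its best summit, more than any other on chromosome 12, but 7.06 were expected, 21.6 times the genome-wide value, so that its fold was 8.07 (6.24 to 10.3). Its other summit, 366 bp away, had 31 tags, 7.70 expected and a fold of 3.68. The next highest expectations were 3.28 times the genome-wide value at 11665164 to 11665455, with 7 tags and a fold of 3.87 (1.84 to 7.45), and 2.62 times at 34198073 to 34198412, with 7 tags and a fold of 4.31 (2.06 to 8.31). In all, 4 intervals, or 1.54% (0.602% to 3.90%), had at least 2 times the genome-wide expectation, against 0.481% on chromosome 13 to 5.66% on chromosome 4. Over all 259 intervals the expectation had a median of 1.08 times the genome-wide value. Without the first interval the highest tag number was 30, and the median fold stayed at 6.03.

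The intervals of chromosome 12 had a median width of 375 bp (340 to 401), quartiles of 254 and 543 bp, and a range of 192 to 1758 bp. The medians of the other chromosomes ran from 323 bp on chromosome 19 to 386 bp on chromosome 11, and 13 of the 19 lay inside the interval of chromosome 12. Width rose with tags. The 50 intervals with up to 5 tags had a median width of 258 bp (226 to 310), the 77 with 6 or 7 tags 281 bp (245 to 322), the 76 with 8 to 10 tags 452 bp (405 to 529), and the 56 with more than 10 tags 584 bp (471 to 644). Across the 259 intervals, width and tags had a Spearman correlation of 0.561. Both measures come from the same tags, so they are not independent. At the narrow end 14 intervals were within 10 bp of the narrowest in the list, and at the wide end 9 exceeded 1 kb.

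Several summits were found in 16 intervals of chromosome 12, or 6.18% (3.84% to 9.80%). On the other numbered chromosomes the share ran from 2.38% on chromosome 2 to 7.57% on chromosome 6, and 15 of the 19 lay inside this interval. Of the 16 intervals, 15 had 2 summits and 1 had 4, and 11 lay in the first 20 Mb of the chromosome, which held 106 of the 259 intervals. The 18 spacings between adjacent summits of these intervals had a median of 394 bp (range 214 to 668 bp). The 16 intervals had a median width of 827 bp and 13 tags at the best summit, against 358 bp and 7 tags for the 243 with a single summit. Both contrasts are partly built in. An interval with several summits takes the values of the best of them and must be wide enough to hold them all. The narrowest of the 16 was 570 bp wide, and the widest with a single summit was 1193 bp.

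The 4 summits stood in the widest interval of chromosome 12, at 16314172 to 16315929. From left to right they had 9, 7, 13 and 12 tags and folds of 6.09, 4.87, 10.4 and 8.48, with spacings of 407, 403 and 651 bp. At the first pair of summits the expectation was 1.97 times the genome-wide value, at the third 1.07 times and at the fourth 1.64 times. The interval had a neighbour 371 bp to its left and belonged to the group of 3 that started at 16313595.

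Among the intervals with 2 summits, both could be equal or 1 could lead. In the interval at 9826895 to 9827806 both summits had 13 tags and a fold of 10.6, and they were 552 bp apart. In the interval at 15440656 to 15441537 the folds were 10.6 and 14.3 at 214 bp, the closest pair. In contrast, the first interval of the chromosome had the most unequal pair, with 3.68 and 8.07. The higher fold was a median of 1.48 times the lower over the 16 intervals.

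**Figure D5:**
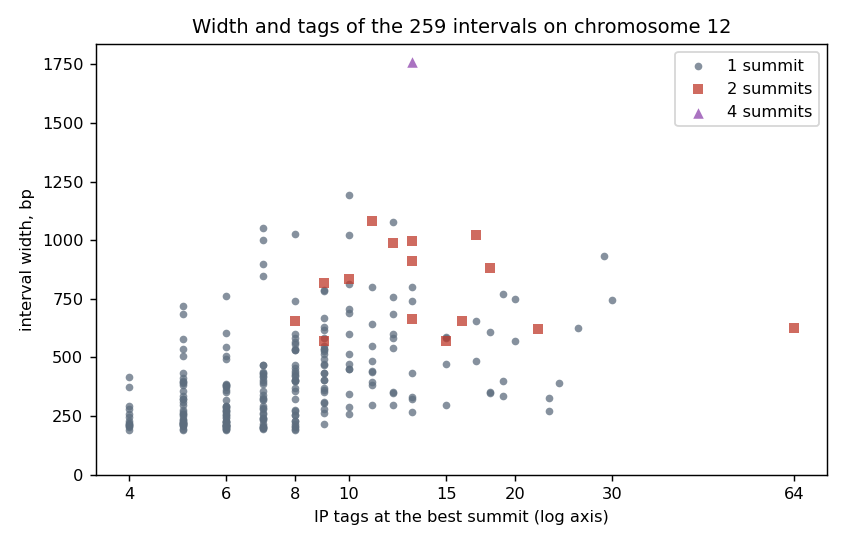
Width of each of the 259 intervals of chromosome 12 in bp against the IP tags at its best summit (log axis), with marks for 1, 2 and 4 summits. Intervals with several summits all lie at 570 bp or wider, the 4-summit interval is the widest at 1758 bp, and the interval with 64 tags is the first of the chromosome, where 7.06 tags were expected.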

How the data were processed

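ChIP-seq libraries of 1 SP1 IP and 1 input were made from crosslinked rat left ventricle and sequenced paired-end with reads of 150 bases, per the labels. The submitters' processing notes name fastp 0.20.0, Bowtie2 2.2.6, SAMtools 1.10, MACS2 2.2.7.1, HOMER 4.11 and the build Rnor_6.0; the roles and settings are not given in the sources used here. The authors deposited 1 peak list of the IP library, called without pooling. Its fold enrichment was deposited as a linear ratio of IP over background, its p-value and q-value as −log10 values, and its score as 10 times the −log10 q with decimals dropped. Start, end and summit were deposited in bp counted from 0. The list holds no input values other than through the expectation.

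Values were computed with scipy 1.17.1, pandas 2.3.3 and numpy 2.4.6 under Python 3.11.15, and plots drawn with matplotlib 3.10.9. Tags were recovered by trying whole numbers below 3000 and accepting a match in −log10 p within 0.0002. In a test on simulated data with 1992 peaks, 100% of the tag counts were recovered. Total depth is unknown, and few tags per summit limit the precision of each fold. An interval takes the values of its summit of highest fold and falls in the 1 Mb bin of that summit. Shares have Wilson 95% intervals, counts exact Poisson intervals and medians intervals from order statistics. All of these take the members as independent and do not allow for clustering along the chromosome. No test was made, since peaks of 1 library are not replicates. Gene starts of GRCr8 were searched for GGGCGG and its reverse complement.

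Named are the 10 intervals of highest fold, the 3 fullest bins, the 3 longest gaps, every interval with 3 or more summits and the 3 highest expectations. Some pairs, groups and the sparse stretch were named after their values were seen. The chromosome, lists and settings were chosen with earlier results of these data known. Distances to gene starts, GC boxes under the summits and sequences at the intervals were planned, and were not analysed here because no genome of the build of the list was used.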

Additional observations from a re-analysis of the deposited data

How the results depend on the processing

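Of 44 alternatives for 10 results, 17 left the value within its counting interval, or a count within 1.5 times, and 27 moved it, 21 of them through the 3 stricter thresholds. In this order, a −log10 q of 5 or more, a −log10 q of 10 or more, and a fold of 5 or more gave the following. The density per Mb was 2.75, 1.09 and 4.06, the median width 486, 600.0 and 426 bp, the median fold 7.98, 10.6 and 7.07, and the median tags 10, 15 and 9. These thresholds remove weak summits by construction. At the first and the second of them, intervals numbered 128 and 51, empty bins made up 25.5% and 40.4%, the fullest bin held 9 and 4, and intervals with a neighbour made up 10.9% and 3.92%. At the second, the densest 25% of bins held 60.8%.

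The bin size acts by construction too: empty bins made up 22.3% with bins of 0.5 Mb and 0% with 2 Mb, and the densest 25% held 60.6% and 42.1%. A neighbour within 5 kb was found for 16.6% and within 20 kb for 37.5%. The share with several summits stayed within its interval under all 3 thresholds tried. Leaving out a replicate was not possible with 1 library per group. No paired analysis was possible because the IP and the input have 1 library each. The planned results on gene starts and GC boxes were not run. Summits with fewer than 4 tags are not in the list, so fainter sites do not show.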

Other observations

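One further summit lay on a scaffold that the list assigns to chromosome 12 without a place on it, and was not counted among the 259 intervals. It spanned 207 bp, with 4 tags at the genome-wide expectation and a fold of 3.77, and a −log10 q of 1.58.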
